A study of Homo sapiens with 11 samples.

Results

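The genes described here are 10 assembly factors and regulators of the proteasome: POMP, PSMG1, PSMG2, PSMD5, PSMD9, PSMD10, PSME4, PSMF1, ADRM1 and NFE2L1. They were chosen by name, as the probes annotated to these symbols or to an older alias. All 10 were found, through 19 probes, among the 17372 genes tested, and all 10 lay above background in all 11 samples.

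The study asked how leukemia cells become resistant to bortezomib (BTZ), an inhibitor of the chymotrypsin-like site of the proteasome, in CCRF-CEM, an established human line of T cell acute lymphoblastic leukemia. CEM/BTZ7 (3 samples), CEM/BTZ100 (1 sample) and CEM/BTZ200 (1 sample) are sublines selected for growth in 7, 100 and 200 nM BTZ, and each was exposed for 24 h to its own concentration. CEM/BTZ-200 (1 sample) is CEM/BTZ200 kept without the drug. CEM/WT_BTZ (3 samples) is the parental line after 24 h in 7 nM BTZ, and CEM/WT (2 samples) is the parental line left untreated. By the study's methods the sublines spent 7 days without BTZ before the exposure, whereas the labels describe cells kept in the drug for weeks and given fresh drug 24 h before RNA was taken, and the time CEM/BTZ-200 spent without drug is given as weeks in one place and as months in another. Each resistant line is a subline from a single selection, so a difference between sublines is not a replicated effect of dose. The paper describes the resistant CEM cells as carrying mutations in PSMB5, the gene of the subunit that BTZ inhibits. It reports weaker inhibition of the mutated subunit, so an equal dose need not mean equal inhibition. It is not stated whether numbered replicates were separate cultures, so the spread behind the p-values may be technical only. Where a group had 1 sample, the fit took its spread from the replicated groups.

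The proteasome degrades proteins tagged with ubiquitin. Its 20S core is a barrel of stacked alpha and beta rings that cannot assemble correctly without dedicated chaperones, and its 19S cap, which unfolds substrates and feeds them in, has chaperones of its own for the ring of ATPases at its base. When proteasomes are inhibited, the transcription factor NFE2L1 (also called NRF1 or TCF11) is processed at the endoplasmic reticulum, escapes degradation and binds antioxidant response elements in the promoters of proteasome genes together with small MAF proteins, which is known as the bounce-back response. In T cell leukemia the proteasome is of interest because these cells are sensitive to its inhibition.

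Values are normalized log2 intensities, on which a difference of 1 is a doubling, and levels of different genes were not compared because probes differ in brightness. Deposited median intensities per sample ran between 67.3 and 188.5, with both samples of the 200 nM subline at the low end (67.96 in CEM/BTZ200 and 67.3 in CEM/BTZ-200), and 73.8% to 89% of probes lay above the negative controls. The label of T lymphoblast was checked on 9 markers, and all 9 were above background in all 11 samples. So were the B cell genes CD79A and CD79B, the myeloid genes CD14, CSF1R and ITGAM and the keratins KRT8 and KRT18, whereas the epithelial cadherin CDH1 was above background in none. The summed level of the T lymphoblast markers lay between 16.63 and 16.94 in CEM/BTZ7, at 15.99 in CEM/BTZ100, 16.35 in CEM/BTZ200 and 16.52 in CEM/BTZ-200, between 15.24 and 15.65 in CEM/WT_BTZ and between 16.18 and 16.78 in CEM/WT. In CEM/WT_BTZ 5 of the 9 fell relative to CEM/WT, and in CEM/BTZ7 6 of the 9 rose relative to CEM/WT_BTZ (8 and 7 with the replicate block described below). Their part in the results below was not tested, and in these bulk samples fewer cells of a type and less RNA per cell cannot be told apart.

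**Figure D1:**
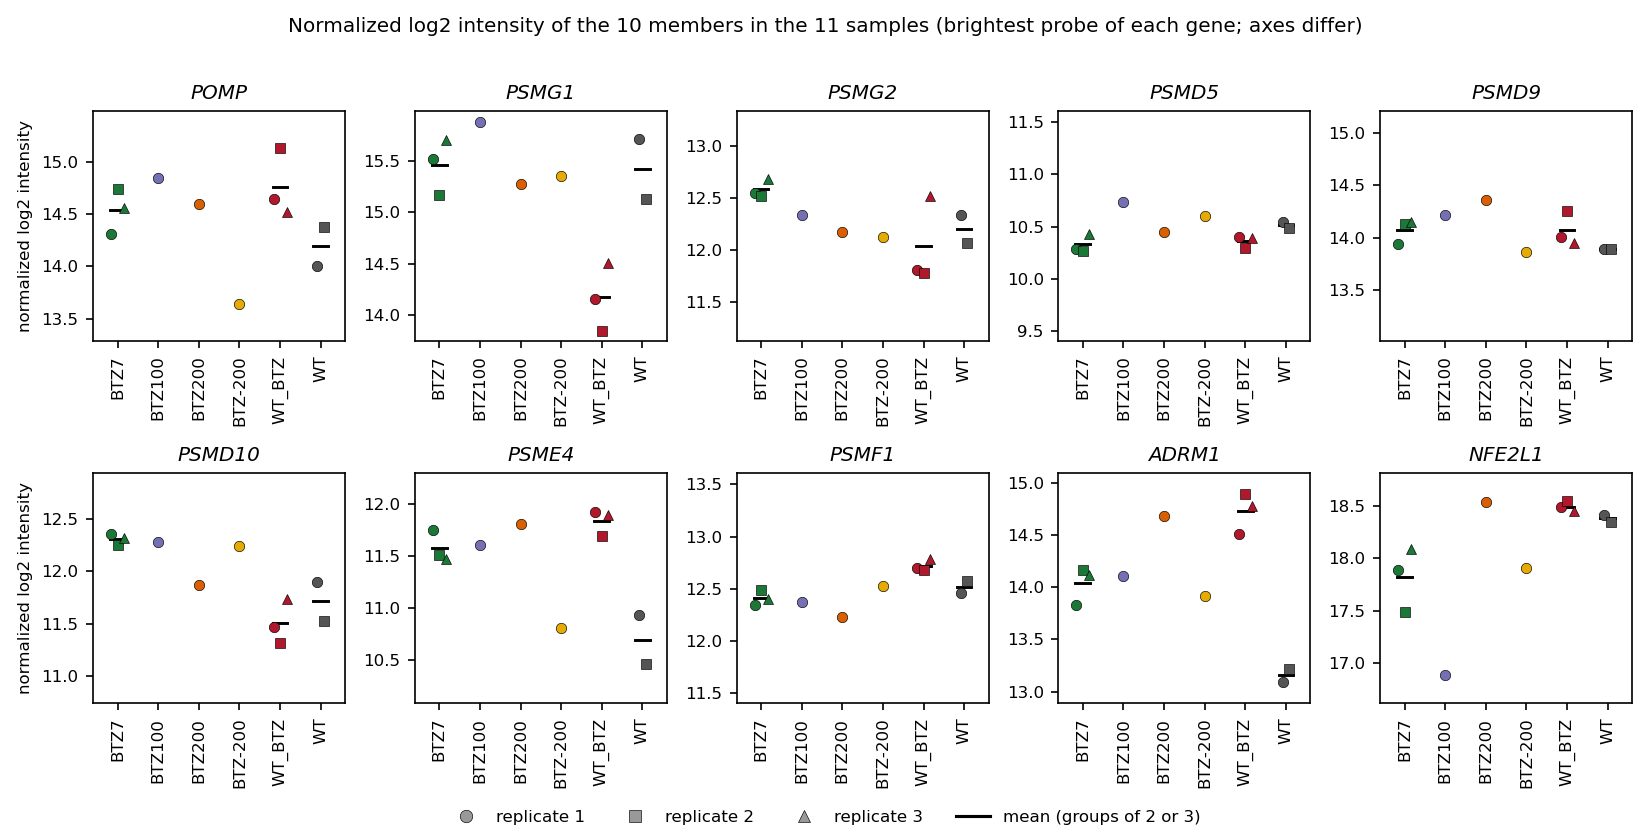
Normalized log2 intensity of each of the 10 genes in the 11 samples, with 1 panel per gene, groups on the horizontal axis, symbols for replicate numbers and bars for the means of groups with 2 or 3 samples. Each gene is shown by its brightest probe. ADRM1 and PSME4 were lowest or nearly lowest in CEM/WT and PSMG1 was lowest in the 3 CEM/WT_BTZ samples, whereas PSMD5 kept within 10.27 to 10.74 in all 11 samples.

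The first question was what a day of BTZ did to these genes in cells that are not resistant. In CEM/WT_BTZ relative to CEM/WT, ADRM1 and PSME4 rose and PSMG1 fell, and the other 7 genes did not pass the test. A gene was called where limma's test, with Benjamini-Hochberg adjustment over the whole table of genes, gave an adjusted p under 0.05. The 2 of 10 genes called higher stand against 6.49% of all genes tested, and the 1 called lower against 9.01%. The median log2 fold change of the 10 was 0.12, and that of all genes was -0.02.

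The second question was how a resistant line differs from parental cells given the same dose. In CEM/BTZ7 relative to CEM/WT_BTZ, PSMG1 and PSMD10 rose and no member was called lower. The 2 of 10 higher calls stand against 12.2% of all genes tested, and the 0 lower calls against 10.1%. The median of the 10 was -0.11, beside 0.01 for all genes. In CEM/BTZ7 relative to untreated CEM/WT no member was called, against 1.90% of all genes called higher and 1.54% called lower. The median of the 10 was 0.27 in this comparison, beside -0.04 for all genes. These 3 comparisons share samples, so the same replicates enter more than 1 of them. Where replicate numbers were taken as pairs (limma with a replicate block), 4, 4 and 2 members were called, beside 37.5%, 44% and 8.17% of all genes, and the members that this adds are named below.

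**Figure D2:**
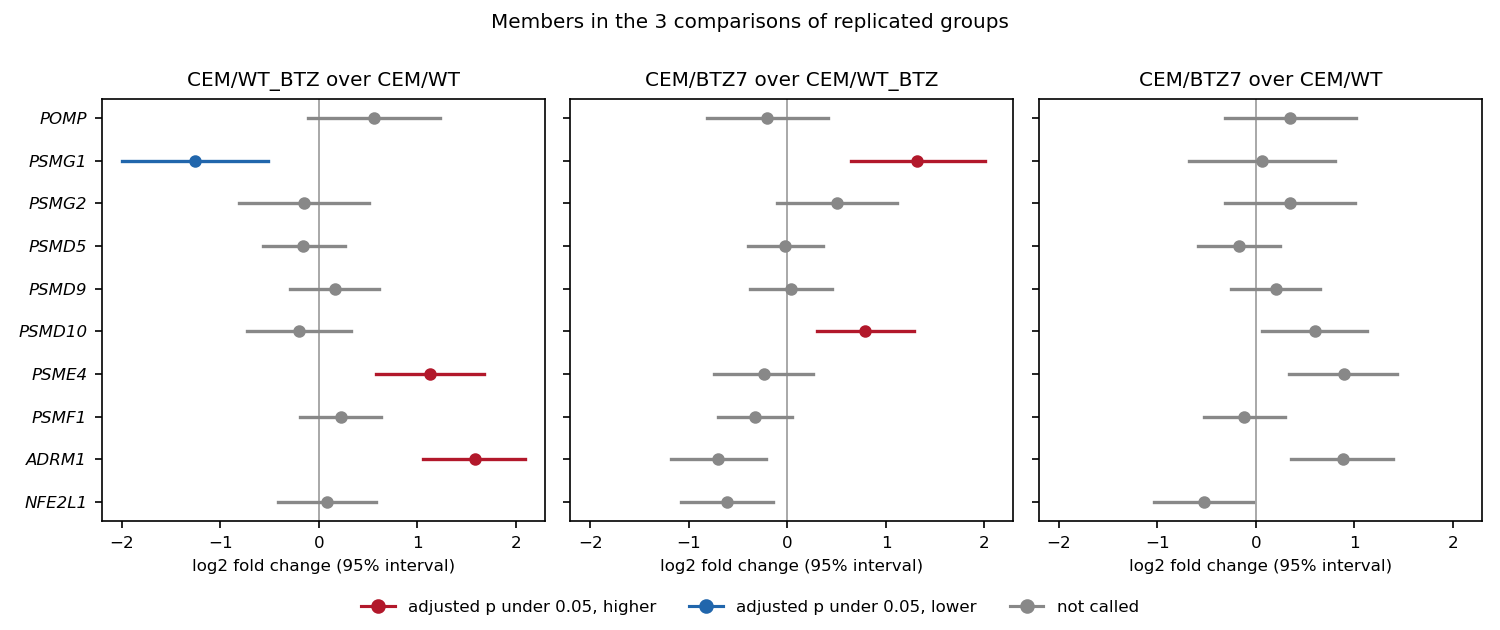
Log2 fold change of each of the 10 genes with its 95% interval from limma, in the 3 comparisons of replicated groups, coloured where the adjusted p was under 0.05. ADRM1 (1.58) and PSME4 (1.13) lay furthest to the right and PSMG1 (-1.26) to the left after BTZ in CEM/WT, PSMG1 (1.32) and PSMD10 (0.79) exceeded 0 in CEM/BTZ7 over CEM/WT_BTZ, and no gene was called between CEM/BTZ7 and CEM/WT.

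Of the chaperones of the 20S core, PSMG1 differed between the groups. PSMG1 (PAC1) forms a heterodimer with PSMG2 (PAC2) on which the alpha ring is built. Its probe read 15.52, 15.17 and 15.70 in CEM/BTZ7, 15.88 in CEM/BTZ100, 15.27 in CEM/BTZ200, 15.35 in CEM/BTZ-200, 14.16, 13.85 and 14.51 in CEM/WT_BTZ, and 15.71 and 15.13 in CEM/WT. All 3 CEM/WT_BTZ samples lay below the other 8, and the resistant sublines lay within or close to the range of untreated CEM/WT, with or without drug. PSMG1 averaged 14.17 ± 0.33 in CEM/WT_BTZ (SD, n = 3) and 15.42 ± 0.41 in CEM/WT (SD, n = 2). It fell by 1.26 (SE 0.308, 95% interval -2 to -0.52, limma adjusted p = 0.041), which is 0.417-fold. The difference was -1.70 among Cy3-labelled and -0.62 among Cy5-labelled samples. CEM/BTZ7 averaged 15.46 ± 0.27 (SD, n = 3) and lay 1.32 above CEM/WT_BTZ (SE 0.285, 0.64 to 2.01, adjusted p = 0.0215), or 2.5-fold. Between CEM/BTZ7 and CEM/WT the difference was 0.06, with a 95% interval of -0.68 to 0.80.

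The call for PSMG1 after BTZ was lost in 7 of the 8 fits that left out 1 sample each, all but that without CEM/WT_BTZ replicate 3 (-1.64 to -0.91, adjusted p between 0.021 and 0.309), and also after scaling to the 75th percentile (-1.22), in the deposited log2 values (-1.04), with only the groups compared in the fit (-1.24) and with the mean of its probes (-0.53), of which the second is dim, is annotated to another record and gave 0.20. For CEM/BTZ7 over CEM/WT_BTZ the call was lost without CEM/WT_BTZ replicate 1, CEM/BTZ7 replicate 1 or CEM/BTZ7 replicate 3 (1.14 to 1.76 over the fits without 1 sample, adjusted p up to 0.123), in the deposited log2 values (0.92, adjusted p = 0.062) and with the mean of its probes (0.27, adjusted p = 0.374), of which the second gave -0.79.

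The partner PSMG2 was not called in any comparison of all 11 samples. It read 12.55, 12.52 and 12.68 in CEM/BTZ7, 12.34 in CEM/BTZ100, 12.17 in CEM/BTZ200, 12.13 in CEM/BTZ-200, 11.81, 11.78 and 12.52 in CEM/WT_BTZ, and 12.34 and 12.07 in CEM/WT. CEM/WT_BTZ replicates 1 and 2 were the lowest of the 11, but replicate 3 reached the CEM/BTZ7 samples. The log2 difference was -0.15 for CEM/WT_BTZ over CEM/WT (95% interval -0.81 to 0.51) and 0.50 for CEM/BTZ7 over CEM/WT_BTZ (-0.11 to 1.11), and its second probe gave -0.24 and 0.50. Without CEM/WT_BTZ replicate 3, CEM/BTZ7 over CEM/WT_BTZ came to 0.92 and was called (adjusted p = 0.0264).

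POMP, which guides the beta subunits into the part-built core and is the first substrate of the finished proteasome, read 14.31, 14.74 and 14.56 in CEM/BTZ7, 14.85 in CEM/BTZ100, 14.60 in CEM/BTZ200, 13.64 in CEM/BTZ-200, 14.64, 15.13 and 14.52 in CEM/WT_BTZ, and 14 and 14.38 in CEM/WT. CEM/BTZ-200 was the lowest sample, and all 3 CEM/WT_BTZ samples lay above both CEM/WT samples. The difference between CEM/WT_BTZ and CEM/WT was 0.56 (SE 0.276, adjusted p = 0.225). With the replicate block it was 0.59 and passed the test (SE 0.101, adjusted p = 0.0223). It was 0.88 among the Cy3-labelled samples and 0.13 among the Cy5-labelled ones.

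The promoters of the PAC pair are shown because they hold the letters that NFE2L1 and small MAF proteins are known to bind. Promoter windows run from 250 bases before to 50 bases after the start of a gene (RefSeq, build GRCh38.p14) and were found for all 10 members. Capitals mark matches, on either strand, to TGACNNNGC or TGAGNNNGC, core letters of the antioxidant response element. A match is a string of letters and not a bound site. The PSMG1 window (chr21:39183402-39183701, minus strand) has matches that begin at -183, -148 and -12, counted from the start, and the first PSMG2 window (chr18:12658488-12658787, plus strand) has 1 that begins at -39. None of the matches shown overlap.
PSMG1: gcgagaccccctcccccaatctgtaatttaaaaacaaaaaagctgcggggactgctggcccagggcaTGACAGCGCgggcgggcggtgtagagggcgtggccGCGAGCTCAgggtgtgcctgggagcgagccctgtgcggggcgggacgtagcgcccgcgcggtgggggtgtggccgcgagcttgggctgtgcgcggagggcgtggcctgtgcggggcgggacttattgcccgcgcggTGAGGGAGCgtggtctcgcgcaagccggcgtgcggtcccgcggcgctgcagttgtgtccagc
PSMG2: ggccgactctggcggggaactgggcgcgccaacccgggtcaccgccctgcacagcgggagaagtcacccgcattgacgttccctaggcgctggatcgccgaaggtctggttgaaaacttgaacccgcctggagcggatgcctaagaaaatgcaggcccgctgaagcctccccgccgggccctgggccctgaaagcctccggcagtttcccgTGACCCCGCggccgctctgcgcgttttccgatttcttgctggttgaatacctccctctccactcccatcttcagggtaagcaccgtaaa
Of the 10 members 6 hold such a match, in 7 of the 14 windows of all members (the ADRM1 windows overlap and share 1 match), and 29.1% of all 35116 windows of the same length hold one (13.3% for TGACNNNGC and 18.3% for TGAGNNNGC). The windows of POMP, PSMD10, PSMF1 and NFE2L1 hold none, and neither does the second window of PSMG2. The heat shock element letters TTCNNGAA occur in 1 of the members' windows, that of PSMD5, and in 7.74% of all windows.

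Of the 3 chaperones of the 19S base, PSMD10 differed between CEM/BTZ7 and CEM/WT_BTZ, and PSMD5 and PSMD9 were not called in any comparison. PSMD10 (gankyrin) holds an ATPase of the base during assembly and is also known as an oncoprotein that binds the retinoblastoma protein. It read 12.36, 12.25 and 12.32 in CEM/BTZ7, 12.28 in CEM/BTZ100, 11.87 in CEM/BTZ200, 12.24 in CEM/BTZ-200, 11.47, 11.32 and 11.74 in CEM/WT_BTZ, and 11.90 and 11.53 in CEM/WT. The 3 CEM/BTZ7 samples and the single samples of CEM/BTZ100 and CEM/BTZ-200 lay above every parental sample, and CEM/BTZ200 lay among the parental samples. CEM/BTZ7 averaged 12.31 ± 0.06 (SD, n = 3) and CEM/WT_BTZ 11.51 ± 0.22 (SD, n = 3). PSMD10 rose by 0.79 (SE 0.204, 95% interval 0.30 to 1.28, adjusted p = 0.0375), or 1.73-fold, with 0.92 among Cy3-labelled and 0.56 among Cy5-labelled samples. Relative to untreated CEM/WT the difference was 0.60 (0.06 to 1.13, adjusted p = 0.274). PSMD10 lies on the X chromosome, whose 638 tested genes had a median log2 fold change of 0.04 in CEM/BTZ7 over CEM/WT_BTZ. Over CEM/WT that median was -0.05. From arrays of DNA copy number the paper reported the loss of an X chromosome in CEM/BTZ7. Its part in the PSMD10 values was not tested. The call was lost in 7 of the 8 fits that left out 1 sample each, all but that without CEM/WT_BTZ replicate 3 (0.71 to 1.02, adjusted p between 0.0297 and 0.148), and also when arrays were scaled to their 75th percentile, in the deposited log2 values and with only the groups compared in the fit (0.60 to 0.80 over these and the other alternatives, adjusted p up to 0.0843).

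PSMD5 (S5b), which in mammals holds an ATPase module of the base and can also inhibit the finished proteasome, read 10.29, 10.27 and 10.43 in CEM/BTZ7, 10.74 in CEM/BTZ100, 10.45 in CEM/BTZ200, 10.60 in CEM/BTZ-200, 10.40, 10.30 and 10.39 in CEM/WT_BTZ, and 10.54 and 10.49 in CEM/WT. PSMD9 (p27), the chaperone of another ATPase module, read 13.94, 14.13 and 14.15 in CEM/BTZ7, 14.22 in CEM/BTZ100, 14.36 in CEM/BTZ200, 13.86 in CEM/BTZ-200, 14.01, 14.25 and 13.95 in CEM/WT_BTZ, and 13.89 in both CEM/WT samples. Over all 11 samples these probes, the brightest of each gene, spanned 10.27 to 10.74 for PSMD5 and 13.86 to 14.36 for PSMD9. The 95% interval for CEM/WT_BTZ over CEM/WT was -0.57 to 0.26 for PSMD5 and -0.29 to 0.61 for PSMD9. For CEM/BTZ7 over CEM/WT_BTZ it was -0.40 to 0.36 for PSMD5 and -0.38 to 0.45 for PSMD9. The second, dimmer probe gave -0.23 and 0.57 in these comparisons for PSMD5, and 0.13 and -0.19 for PSMD9. In the single samples over CEM/WT it departed further, with 1 for PSMD5 in CEM/BTZ-200 (SE 0.635) and -0.7 for PSMD9 in CEM/BTZ100 (SE 0.375).

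The promoters of PSMD5 and PSMD9 are shown because each holds 3 matches to the antioxidant response letters although neither gene was called. In the PSMD5 window (chr9:120842873-120843172, minus strand) they begin at -162, -134 and -87, and in the PSMD9 window (chr12:121888540-121888839, plus strand) at -227, -149 and -102.
PSMD5: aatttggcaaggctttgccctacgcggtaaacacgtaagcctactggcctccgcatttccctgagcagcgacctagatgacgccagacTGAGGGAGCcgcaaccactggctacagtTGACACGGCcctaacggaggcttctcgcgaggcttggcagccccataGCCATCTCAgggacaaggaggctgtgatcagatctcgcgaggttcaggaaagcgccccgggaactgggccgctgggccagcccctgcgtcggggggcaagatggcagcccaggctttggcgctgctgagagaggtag
PSMD9: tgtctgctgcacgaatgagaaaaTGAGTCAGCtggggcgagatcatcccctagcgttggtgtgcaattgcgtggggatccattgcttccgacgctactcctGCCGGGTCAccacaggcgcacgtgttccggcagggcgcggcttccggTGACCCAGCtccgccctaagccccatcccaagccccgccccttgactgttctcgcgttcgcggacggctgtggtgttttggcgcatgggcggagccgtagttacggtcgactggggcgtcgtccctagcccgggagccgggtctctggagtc

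ADRM1 was the member with the largest rise after BTZ in CEM/WT. ADRM1 (Rpn13) is a ubiquitin receptor of the 19S cap that also docks the deubiquitinase UCHL5. It read 13.83, 14.16 and 14.12 in CEM/BTZ7, 14.11 in CEM/BTZ100, 14.68 in CEM/BTZ200, 13.92 in CEM/BTZ-200, 14.51, 14.89 and 14.78 in CEM/WT_BTZ, and 13.09 and 13.22 in CEM/WT. Both CEM/WT samples lay below the other 9, and the CEM/WT_BTZ samples lay above those of CEM/BTZ7. ADRM1 averaged 14.73 ± 0.19 in CEM/WT_BTZ (SD, n = 3) and 13.16 ± 0.09 in CEM/WT (SD, n = 2), a rise of 1.58 (SE 0.215, 95% interval 1.06 to 2.09, limma adjusted p = 0.00807) or 2.98-fold. Its second probe gave 1.58 as well, and the difference was 1.61 among Cy3-labelled and 1.56 among Cy5-labelled samples. CEM/BTZ7 averaged 14.04 ± 0.18 (SD, n = 3), 0.70 below CEM/WT_BTZ (log2 fold change -0.70, SE 0.199, adjusted p = 0.0505) and 0.88 above CEM/WT (SE 0.215, adjusted p = 0.0998). CEM/BTZ7 over CEM/WT_BTZ was called lower in 6 of 18 alternatives, among them scaling to the 75th percentile (-0.90, adjusted p = 0.0466) and the deposited log2 values (-0.86, adjusted p = 0.0218). With the replicate block both of these comparisons passed the test (-0.67, adjusted p = 0.0129, and 0.86, adjusted p = 0.0352). The call for CEM/WT_BTZ over CEM/WT was lost in the fits without CEM/WT replicate 1 or without CEM/WT replicate 2, each of which leaves 1 untreated sample (adjusted p up to 0.0968, log2 fold change 1.49 to 1.68 over the fits that left out 1 sample each).

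PSME4 (PA200), a large activator that caps the core without using ATP or ubiquitin, also rose after BTZ in CEM/WT. It read 11.75, 11.51 and 11.47 in CEM/BTZ7, 11.60 in CEM/BTZ100, 11.80 in CEM/BTZ200, 10.81 in CEM/BTZ-200, 11.92, 11.69 and 11.89 in CEM/WT_BTZ, and 10.93 and 10.46 in CEM/WT. The 3 samples without drug, CEM/BTZ-200 and both of CEM/WT, were the lowest of the 11, and the 8 samples exposed to BTZ lay between 11.47 and 11.92. CEM/WT_BTZ averaged 11.84 ± 0.13 (SD, n = 3) and CEM/WT 10.70 ± 0.33 (SD, n = 2), a rise of 1.13 (SE 0.226, 0.58 to 1.68, adjusted p = 0.0231) or 2.19-fold. It was 0.87 among Cy3-labelled and 1.43 among Cy5-labelled samples. CEM/BTZ7 differed from CEM/WT by 0.89 (SE 0.226, 0.34 to 1.43, adjusted p = 0.112), which passed with the replicate block (0.88, adjusted p = 0.0459). The difference between CEM/BTZ7 and CEM/WT_BTZ was -0.24 (-0.75 to 0.26). The call for CEM/WT_BTZ over CEM/WT was lost in 5 of the 8 fits that left out 1 sample each, namely without either untreated sample, without replicate 1 or 3 of CEM/WT_BTZ, or without replicate 2 of CEM/BTZ7 (0.86 to 1.45 over the 8 fits, adjusted p up to 0.143), and with only the groups compared in the fit (adjusted p = 0.0847).

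PSMF1 (PI31), named as an inhibitor of the core and known also as an adaptor for proteasome transport, was not called. It read 12.34, 12.49 and 12.40 in CEM/BTZ7, 12.37 in CEM/BTZ100, 12.23 in CEM/BTZ200, 12.53 in CEM/BTZ-200, 12.70, 12.68 and 12.78 in CEM/WT_BTZ, and 12.46 and 12.57 in CEM/WT. The CEM/WT_BTZ samples were the 3 highest, by a small margin. The difference was -0.33 for CEM/BTZ7 over CEM/WT_BTZ (95% interval -0.71 to 0.05) and 0.22 for CEM/WT_BTZ over CEM/WT (-0.19 to 0.63), and the second probe gave 0.11 and 0.01.

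The promoters of PSME4 and ADRM1, the 2 members called higher in CEM/WT_BTZ over CEM/WT, are shown for comparison with those above. In the PSME4 window (chr2:53970944-53971243, minus strand) matches to the antioxidant response letters begin at -220 and -34, and in the first ADRM1 window (chr20:62302646-62302945, plus strand) 1 begins at -137. PSMG1, which fell, and PSMD5 and PSMD9, which were not called, hold matches too. Neither POMP, called higher with the replicate block, nor NFE2L1, whose RefSeq probes (described below) were higher in CEM/WT_BTZ, holds any.
PSME4: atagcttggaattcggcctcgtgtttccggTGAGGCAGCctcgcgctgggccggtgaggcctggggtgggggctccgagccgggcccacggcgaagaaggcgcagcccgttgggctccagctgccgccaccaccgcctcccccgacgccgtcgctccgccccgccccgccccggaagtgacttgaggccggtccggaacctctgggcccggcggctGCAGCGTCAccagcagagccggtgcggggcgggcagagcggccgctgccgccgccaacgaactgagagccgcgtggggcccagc
ADRM1: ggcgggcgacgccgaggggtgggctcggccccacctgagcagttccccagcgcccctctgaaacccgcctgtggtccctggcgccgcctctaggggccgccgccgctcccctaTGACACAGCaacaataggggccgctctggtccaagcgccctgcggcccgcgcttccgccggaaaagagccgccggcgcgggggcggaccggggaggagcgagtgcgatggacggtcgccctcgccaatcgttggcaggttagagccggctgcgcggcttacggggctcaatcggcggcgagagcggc

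NFE2L1 was represented by 4 probes that did not give the same result. The 3 probes annotated to its RefSeq transcript were higher in CEM/WT_BTZ than in CEM/WT, by 1.42 (SE 0.315), 1.33 (SE 0.207) and 1.49 (SE 0.196). In the same fit over probes the brightest probe, annotated to another record, differed by 0.08 (SE 0.223). The brightest probe represents the gene in the test, because each gene was taken by its brightest probe. It ranked between 26 and 351 of 41000 probes by brightness in the 11 samples. Its deposited intensity was 136000, 151000 and 211000 in CEM/BTZ7, 109000 in CEM/BTZ100, 194000 in CEM/BTZ200, 151000 in CEM/BTZ-200, 676000, 1010000 and 573000 in CEM/WT_BTZ, and 201000 and 243000 in CEM/WT. The 3 CEM/WT_BTZ intensities were the highest of the 11. After quantile normalization, which gives every sample the same distribution, the same probe read 17.89, 17.49 and 18.09 in CEM/BTZ7, 16.88 in CEM/BTZ100, 18.54 in CEM/BTZ200, 17.91 in CEM/BTZ-200, 18.49, 18.55 and 18.45 in CEM/WT_BTZ, and 18.42 and 18.35 in CEM/WT. CEM/WT_BTZ then lay only just above CEM/WT. With arrays scaled to their 75th percentile, the brightest probe was 1.42 higher in CEM/WT_BTZ than in CEM/WT (adjusted p = 0.0176), and in the deposited log2 values 1.45 higher (adjusted p = 0.0329).

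The brightest of the RefSeq probes read 13.09, 13.01 and 12.95 in CEM/BTZ7, 12.89 in CEM/BTZ100, 13.17 in CEM/BTZ200, 12.91 in CEM/BTZ-200, 13.94, 13.64 and 13.88 in CEM/WT_BTZ, and 12.58 and 12.42 in CEM/WT. The CEM/WT_BTZ samples were the 3 highest, the CEM/WT samples the 2 lowest, and all samples of the resistant sublines lay between them. With this probe for the gene, a choice made after the probes were seen to differ, the log2 fold change was 1.33 for CEM/WT_BTZ over CEM/WT (SE 0.191, adjusted p = 0.00952), -0.81 for CEM/BTZ7 over CEM/WT_BTZ (SE 0.177, adjusted p = 0.0228) and 0.52 for CEM/BTZ7 over CEM/WT (adjusted p = 0.271). For CEM/BTZ7 over CEM/WT_BTZ all 4 probes gave negative values, the brightest -0.61 (SE 0.193, adjusted p = 0.0679, -0.62 with the replicate block, adjusted p = 0.0416) and the others -0.75, -0.81 and -0.93. After scaling to the 75th percentile the brightest probe gave -2.08 (adjusted p = 0.00335), and in the deposited log2 values -2.36 (adjusted p = 0.00241). For CEM/BTZ7 over CEM/WT the brightest probe gave -0.53 and the other 3 gave 0.67, 0.52 and 0.56, so the direction depended on the probe.

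**Figure D3:**
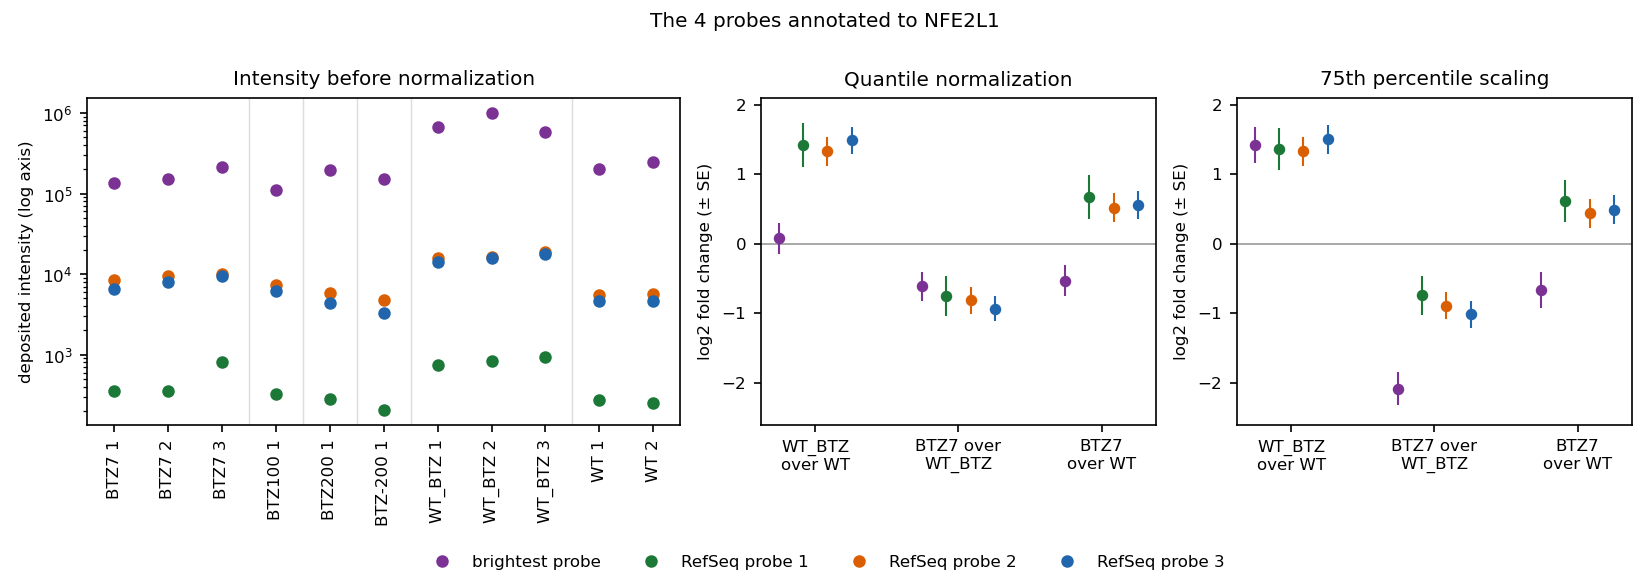
The 4 NFE2L1 probes, with the deposited intensity in each sample on a log axis at the left, and the log2 fold change (± SE) in the comparisons of replicated groups after quantile normalization in the middle and after scaling to the 75th percentile at the right. The brightest probe gave 0.08 for CEM/WT_BTZ over CEM/WT after quantile normalization and 1.42 after scaling, while the 3 RefSeq probes gave 1.33 to 1.49 after quantile normalization.

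The next question was whether the sublines selected at higher doses, and the line kept without drug, resembled CEM/BTZ7. Each is 1 sample against the 2 of CEM/WT. In CEM/BTZ100 over CEM/WT 1 of 10 members was called, against 2.59% of all genes in either direction. That was NFE2L1 by its brightest probe, with a log2 fold change of -1.60 (SE 0.289, adjusted p = 0.0482), while its 3 RefSeq probes gave 0.32, 0.41 and 0.42, and the call was lost in all 8 fits that left out 1 sample each (-1.70 to -1.54, adjusted p between 0.0627 and 0.212). In CEM/BTZ200 over CEM/WT no member was called, against 3.00% of all genes, and ADRM1 came nearest with 1.53 (SE 0.299, 0.81 to 2.25, adjusted p = 0.0534). In CEM/BTZ-200 over CEM/WT no member was called, against 3.07% of all genes. The median over the 10 members was 0.34 in CEM/BTZ100, 0.11 in CEM/BTZ200 and 0.00 in CEM/BTZ-200, each over CEM/WT.

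ADRM1 was 0.88 higher than CEM/WT in CEM/BTZ7, 0.96 in CEM/BTZ100, 1.53 in CEM/BTZ200 and 0.75 in CEM/BTZ-200. PSME4 was 0.89 higher in CEM/BTZ7, 0.88 in CEM/BTZ100, 1.08 in CEM/BTZ200 and 0.13 in CEM/BTZ-200. None of these passed the test. PSMG1, the member that fell in CEM/WT_BTZ, differed from CEM/WT by 0.06 in CEM/BTZ7, 0.40 in CEM/BTZ100, -0.20 in CEM/BTZ200 and -0.02 in CEM/BTZ-200. The doses differ between the sublines.

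The presence of the drug in a resistant background was compared between CEM/BTZ200 and CEM/BTZ-200, with 1 sample each. No member was called, against 0.317% of all genes in either direction. PSME4 read 11.80 in CEM/BTZ200 and 10.81 in CEM/BTZ-200, and POMP 14.60 in CEM/BTZ200 and 13.64 in CEM/BTZ-200. The log2 fold changes were 0.95 for PSME4 (95% interval 0.00 to 1.89, adjusted p = 0.465), 0.92 for POMP (-0.24 to 2.07, adjusted p = 0.617) and 0.78 for ADRM1 (-0.11 to 1.68, adjusted p = 0.551). The median of the 10 was 0.29, beside -0.04 for all genes. CEM/BTZ200 carried Cy3 and CEM/BTZ-200 carried Cy5, so the fit separates drug from dye only through the other groups.

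The difference between this response and that of CEM/WT was tested as an interaction, although the doses, 200 nM in the subline and 7 nM in CEM/WT, and the times without drug differ. No member was called, against 0.0748% of all genes. The difference was 1.08 for PSMG1 (95% interval -0.37 to 2.52, adjusted p = 0.526), -0.79 for ADRM1 (-1.80 to 0.21, adjusted p = 0.497), 0.36 for POMP (-0.94 to 1.65) and -0.18 for PSME4 (-1.25 to 0.88). These intervals are wide and leave room for differences of about the size of the responses. The RefSeq probes of NFE2L1 gave -1.44, -1.05 and -1.15, and the brightest of them had an adjusted p of 0.338 as the gene's probe.

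**Figure D4:**
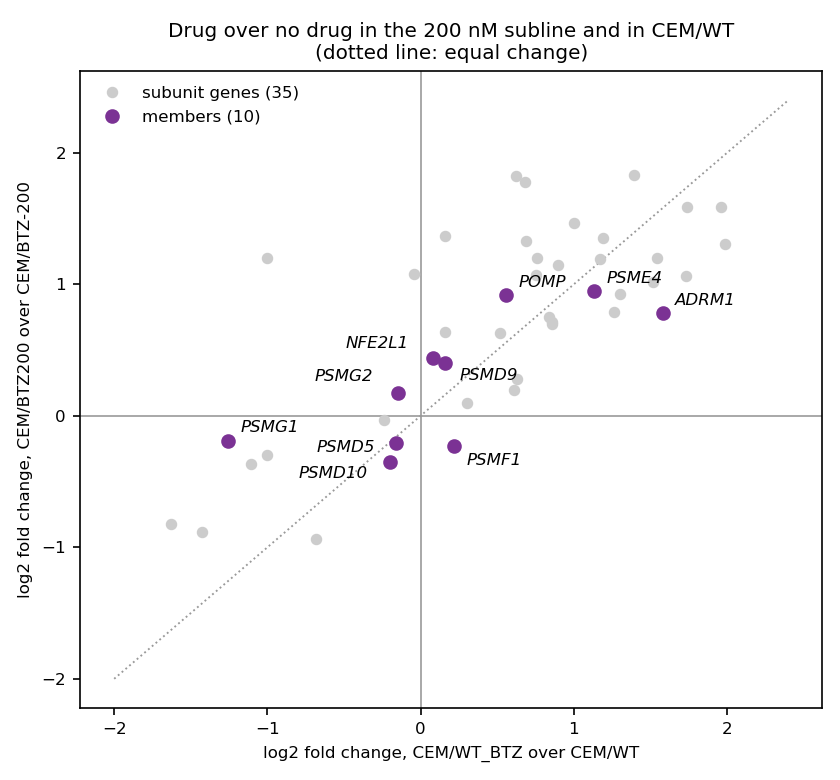
Log2 fold change of CEM/BTZ200 over CEM/BTZ-200 (vertical) against that of CEM/WT_BTZ over CEM/WT (horizontal), 1 point per gene, for the 10 genes described here (each by its brightest probe) and the 35 proteasome subunit genes. PSME4 (0.95 and 1.13), ADRM1 (0.78 and 1.58) and POMP (0.92 and 0.56) lay among the subunits at the upper right, and PSMG1 (-0.19 and -1.26) lay at the left, as did immunoproteasome genes such as PSMB8 (-0.82 and -1.63).

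The other genes of the pathway were counted in the same fit, by lists that leave out the 10 members. In CEM/WT_BTZ over CEM/WT, 8 of 10 measured non-ATPase subunits of the 19S rose and 0 fell (median 1.28, with PSMD12 at 1.96), and 4 of 5 ATPases rose (median 1.39, with PSMC2 at 1.99). Of the 20S core, 3 of 7 constitutive beta subunits rose (median 0.76), and of the alpha subunits 1 of 7 rose and 1 fell (median 0.61). Of 6 immunoproteasome and PA28 genes, which serve antigen presentation, 4 fell and 0 rose (median -1.06, with PSMB8 at -1.63). Among the 10 members, 2 rose and 1 fell (median 0.12). With the replicate block, which called 37.5% of all genes, 4 alpha subunits rose and 1 fell, and 5 beta subunits rose.

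Other assembly factors and proteasome-bound regulators followed: 9 of 16 rose and 0 fell in CEM/WT_BTZ over CEM/WT (median 0.85), led by ZFAND2A (3.67), an arsenite-inducible protein that binds the 19S cap, and ZFAND5 (2.36), a ubiquitin-binding activator. The replicate block gave 9 higher and 3 lower. Of 16 genes that process NFE2L1 or pair with it, 8 rose and 2 fell (median 0.87). MAFG, a small MAF partner, rose by 2.33 and the deubiquitinase USP15 by 2.26, while the related factor NFE2 fell by 1.93 and NFE2L3 fell by 1.80.

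CEM/BTZ7 over CEM/WT_BTZ uses the same CEM/WT_BTZ samples, now as the denominator. Of the other assembly factors and regulators 1 rose and 6 fell (median -0.37, with ZFAND2A at -3.32), and of the processing and partner genes 2 rose and 7 fell (median -0.31, with NFE2 at 3.05 and NFE2L3 at 2.68). Of the subunits, 3 non-ATPases of the 19S fell and 0 rose (median -0.48), 0 of 5 ATPases changed, 2 alpha and 0 beta subunits rose, and 4 of 6 immunoproteasome and PA28 genes rose (median 1.79). With the replicate block 6 non-ATPases and 2 ATPases fell and 2 beta subunits rose, beside 44% of all genes called. In that fit 3 alpha subunits rose and 1 fell, and of the other assembly factors and regulators 3 rose and 8 fell. The direction of the beta subunits depended on the scaling: their median was 0.29 here, -0.15 after scaling to the 75th percentile (1 of 7 lower) and -0.16 in the deposited log2 values (3 of 7 lower), and 6 non-ATPases fell in both. In CEM/BTZ7 over CEM/WT, 8 of the 35 subunit genes were called, all 8 higher (median 0.75), beside none of the 10 members (median 0.27) and none of the 2 further lists. The replicate block changed these counts: 18 subunits, 2 members, 1 of the other assembly factors and 2 of the NFE2L1 processing and partner genes were higher, beside 8.17% of all genes called, and the deposited log2 values called 1 gene of each further list. After scaling to the 75th percentile 4 of the 35 subunits were called in CEM/BTZ7 over CEM/WT, all higher (median 0.46), beside 3.26% of all genes. In the deposited log2 values 8 were called, all higher (median 0.5), beside 4.43% of all genes. With quantile normalization and no replicate block, the medians of the 35 subunits over CEM/WT were 1.02 in CEM/BTZ100, 0.89 in CEM/BTZ200 and 0.05 in CEM/BTZ-200.

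**Figure D5:**
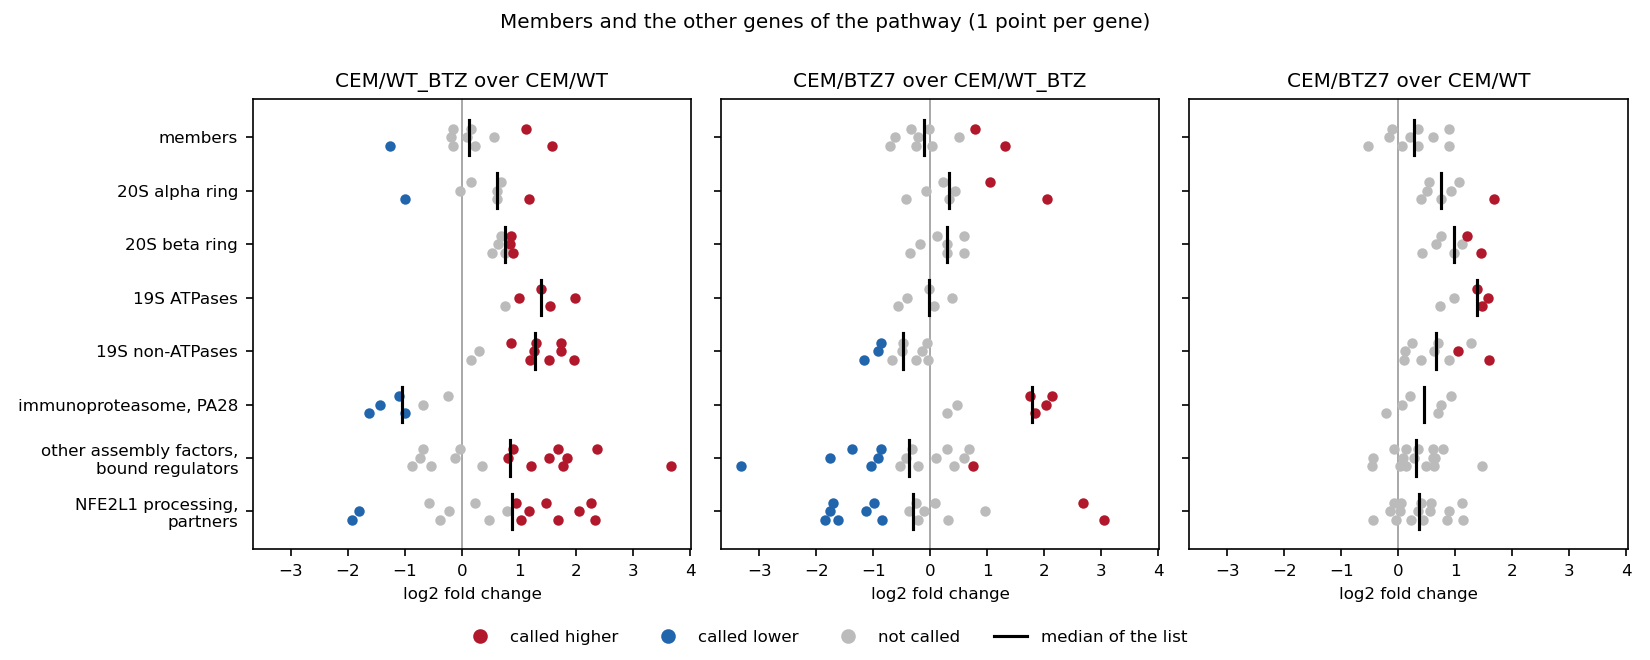
Log2 fold change of the 10 genes described here (members, top row) and of the other pathway genes by list, 1 point per gene with the list's median as a bar, in the comparisons of replicated groups. The members' medians (0.12, -0.11 and 0.27) lay closer to 0 than those of the 19S ATPases in the outer panels (1.39 and 1.38).

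Over the 11 samples, 4 members, each by its brightest probe, had levels that ran with those of the constitutive subunits. The subunits were summarised in each sample by the median deviation of 29 genes from their own means, which was 0.13 to 0.22 in CEM/BTZ7, 0.43 in CEM/BTZ100, 0.36 in CEM/BTZ200, -0.64 in CEM/BTZ-200, 0.19 to 0.28 in CEM/WT_BTZ, and -0.67 and -0.74 in CEM/WT. Pearson's r with it was 0.93 for PSME4, 0.79 for ADRM1, 0.74 for POMP and 0.73 for PSMD9. Spearman's rho was 0.71, 0.67, 0.63 and 0.75 in the same order. For PSMG2 r was 0.15, for PSMD10 0.09, for PSMF1 -0.10, for NFE2L1 -0.21, for PSMG1 -0.22 and for PSMD5 -0.27. The r of NFE2L1 is that of its brightest probe. Its RefSeq probes, which gave other fold changes, were not compared with the subunits. Nor was the second, dimmer probe of PSMD9, which read 5.9 in CEM/BTZ100 and 6.93 in CEM/BTZ-200. The r and rho values describe 11 samples that fall into drug-free and exposed groups and share 1 normalization, so they carry no test.

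The genes most like each member across the 11 samples were ranked by Pearson's r over all genes tested, each by its brightest probe. For NFE2L1 this is the probe that differed from its RefSeq probes, which were not ranked. The gene most like each member was N4BP2 for POMP (r = 0.97), HMGN2P46 for PSMG1 (0.99), EXO1 for PSMG2 (0.95), C1orf174 for PSMD5 (0.91), SSNA1 for PSMD9 (0.87), MTFR1 for PSMD10 (0.98), BLTP3B for PSME4 (0.96), PDE2A for PSMF1 (0.96), LINC-PINT for ADRM1 (0.97) and BMP8B for NFE2L1 (0.96). None of these encodes a proteasome subunit. The 35 subunit genes are a small part of the 17372 tested, so a count of 0 among 100 genes says little. Of them, 9 were among the 100 genes most like PSME4, 6 among those most like PSMD9, 2 for ADRM1 and 1 for PSMD10. The count was 0 for POMP, PSMG1, PSMG2, PSMD5, PSMF1 and NFE2L1. For POMP the 100th gene had r = 0.84, above its r of 0.74 with the subunit summary. Among the members themselves, PSMG1 ran with PSMD10 (r = 0.81), PSMG2 with PSMD10 (0.78), PSME4 with ADRM1 (0.81) and POMP with PSMD9 (0.75), and PSMG1 ran against PSMF1 (-0.78).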

How the data were processed

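RNA of 11 samples was labelled with Cy3 or Cy5 and hybridized to Agilent whole human genome arrays, and the authors quantified the scans with Agilent Feature Extraction, a tool named with limma in the submitters' processing notes without versions. The deposited intensities are processed spot signals that were not normalized between arrays (no value lay below 0), and the deposited log2 values were background-corrected and normalized within arrays by loess and between arrays by quantiles, by the authors with limma. Intensities were used in the main analysis and the log2 values as an alternative. The CEM/BTZ7 intensity columns 1, 2 and 3 matched log2 columns 2, 3 and 1 best, and the numbers and dyes of the intensity table were kept.

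Intensities were quantile-normalized, put on the log2 scale and averaged over the spots of a probe. Probes above the 95th percentile of the 153 negative control spots of a sample in at least 2 samples were kept (37422 of 41000), and the brightest of them on average stood for each of the 17372 genes. One model with the 6 groups and a dye term was fitted in R 4.3.3 with limma 3.58.1, reading files with data.table (1.17.8), with 4 residual and 2.40 prior degrees of freedom, 2-sided p-values and Benjamini-Hochberg adjustment over all genes. The dye term called 0 genes. The number of arrays limits the precision, and no source used here says which Cy3 and Cy5 samples lay on 1 array. Replicate numbers come from the sample titles. Deviations from the group means correlated in all 7 pairs with the same number (r = 0.29 to 0.53). The fit with a replicate block is therefore given where it changed a call of a member or moved a printed list count by over 1.5 times. The fit was tested on data simulated with errors independent between samples and with changes in CEM/WT_BTZ only. That simulation therefore did not test the correlation between replicates of the same number or the comparisons of single samples. Current symbols were found for 29203 probes by gene identifier and for 11 by accession, 30 deposited symbols were kept, and probes with several symbols (84) or no symbol (11672) were not used.

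All 10 members are named whatever their values, and of a pathway list at most 3 called genes with the largest changes. The members and lists were chosen with earlier results of these data known. Among the listed genes not tested were PSMC5, PSMD7, PSMD13, PSMG4 and MAFK, which had no kept probe with a single symbol.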

Additional observations from a re-analysis of the deposited data

How the results depend on the processing

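With the replicate block, 4 members were called in CEM/WT_BTZ over CEM/WT, 4 in CEM/BTZ7 over CEM/WT_BTZ and 2 in CEM/BTZ7 over CEM/WT, in place of 3, 2 and 0, and 6518, 7652 and 1420 genes in all, in place of 2692, 3867 and 597. It changed no other call of a member in these comparisons. With only the groups compared in the fit, 1 member was called in CEM/WT_BTZ over CEM/WT, beside 670 genes in all (3.86%). In CEM/BTZ7 over CEM/WT_BTZ this fit called 1 member, beside 2902 genes in all (16.7%). For CEM/BTZ7 over CEM/WT it called 389 genes in all. With probes above background in all samples, or without the dye term, 4 members were called in CEM/BTZ7 over CEM/WT_BTZ, beside 31.7% and 27% of all genes. In CEM/BTZ200 over CEM/WT 1 member, ADRM1, was called with these settings and in the deposited log2 values (1.49 to 1.53). The share of all genes called there was 3.68%, 4.37% and 2.75%, in that order.

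In CEM/BTZ100 over CEM/WT 0 members were called after scaling to the 75th percentile, in the deposited log2 values and with the mean of a gene's probes. The same held with CEM/BTZ7 dyes from the matched columns and with RefSeq-annotated probes (an alternative chosen after seeing the data), where NFE2L1 turned to 0.41. These settings called 2.34% to 2.62% of all genes in that comparison. Leaving out 1 sample at a time gave 0 to 2 members called in CEM/WT_BTZ over CEM/WT, 0 to 3 in CEM/BTZ7 over CEM/WT_BTZ and 0 to 0 in CEM/BTZ100 over CEM/WT, and NFE2L1 in CEM/WT_BTZ over CEM/WT came to 0.00 without CEM/WT replicate 1 and 0.15 without CEM/WT replicate 2. The count of all genes ran between 221 (without CEM/WT replicate 1) and 2469 in CEM/WT_BTZ over CEM/WT, 1518 and 3451 in CEM/BTZ7 over CEM/WT_BTZ, and 117 and 653 in CEM/BTZ7 over CEM/WT. The cause of these changes was not tested. ADRM1 after BTZ in CEM/WT was called in 16 of 18 alternatives, PSME4 in 12, PSMG1 in 7, and, in CEM/BTZ7 over CEM/WT_BTZ, PSMG1 in 13 and PSMD10 in 8. All 10 members were above background in every sample, and single samples have no spread of their own.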
